A study of Mus musculus with 6 samples.

Results

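Immediate early genes and the genes of the NF-kB response were examined in tumour-exposed mouse macrophages that lack the lipid carrier E-FABP (gene Fabp5). The set was chosen by gene symbol and holds 33 genes, of which 17 are immediate early genes and 16 belong to the NF-kB system. Of these, 32 had a probe set of their own among the 18193 genes measured, and Nfkb1 was not analysed here. A gene with several probe sets is given by its brightest, by mean over the 6 arrays, and the others serve as a check.

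Immediate early genes are switched on within minutes of a stimulus without new protein synthesis, mostly by MAP kinases that act on the factors SRF and CREB, and many encode short-lived transcription factors or their brakes. NF-kB is a family of dimeric factors held in the cytoplasm by IkB proteins, which a kinase complex marks for destruction after signals such as tumour necrosis factor or bacterial products. In macrophages both systems shape the inflammatory response, and several NF-kB targets encode inhibitors that shut the response down again.

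The samples were 3 arrays of E-FABP knockout and 3 arrays of wild type bone marrow macrophages, both groups described as C57BL/6 and taken from mice of 6 to 8 weeks. Cells of both groups were grown with GM-CSF at 20 ng/ml for 7 days and then shared a 12-well plate format with E0771 cells, a mouse breast tumour line, kept in an insert for 18 h, and macrophages without tumour cells were not analysed here. The comparison asks how these macrophages differ by genotype after co-culture with tumour cells, and at 18 h it reads the state at that time rather than the first minutes of a response. The labels do not say which part of Fabp5 was deleted or whether the replicates are separate animals; p-values therefore measure the spread between these samples.

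Values are log2 intensities on Affymetrix arrays, differences are knockout minus wild type in log2 units, and p-values come from limma with Benjamini-Hochberg adjustment over 45037 probe sets and a threshold of 0.05. Fabp5 read 8.13, 8.31 and 8.39 in knockout and 14.47, 14.41 and 14.45 in wild type, a difference of -6.17 (SE 0.08, limma adjusted p = 1.96e-09). The median of an array lay between 5.60 and 5.64, and precision is limited by the 3 arrays per genotype. All 10 macrophage markers checked were brighter than the median of all values (5.63), with Csf1r, the receptor of the macrophage growth factor, at 13.86 to 13.89 in knockout and 13.87 to 13.92 in wild type. Of these 10, 2 fell, the Fc receptor Fcgr1 by 1.13 (SE 0.19, limma adjusted p = 0.0227) and Mertk, a receptor for uptake of dead cells, by 0.46 (SE 0.08, limma adjusted p = 0.0234). The mean level of the macrophage list was 11.26 to 11.45 in knockout and 11.52 to 11.56 in wild type. RNA came from the whole culture, in which fewer cells of a type and less RNA per cell cannot be told apart. Neutrophil markers had a mean level of 9.35 to 10.01 in knockout and 10.05 to 10.30 in wild type, with 0 of 10 past the threshold by limma; at an unadjusted p under 0.05, 7 were lower and 1 was higher. Over all genes, 2.05% were called lower and 2.85% higher by limma, and before adjustment these shares were 8.15% and 15.2%. Dendritic cell markers had a mean level of 7.43 to 7.79 in knockout and 7.19 to 7.37 in wild type. Of the 8, 1 was called higher, and before adjustment 4 were higher and 0 lower (limma p under 0.05). Fibroblast markers had a mean level of 5.17 to 5.26 in knockout and 5.69 to 5.75 in wild type. Of the 8, 3 were called lower, and before adjustment 6 were lower and 0 higher (limma p under 0.05). No background level was available, so no marker can be called absent, and the part of these cells in the results below was not tested.

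Most of the immediate early and NF-kB genes did not pass the test between genotypes. Of the 32 genes measured, Nfkbiz fell, Egr3 rose and 30 did not pass. Over all 18193 genes, 4.9% were called, 2.05% lower and 2.85% higher (3.75% of all probe sets), so 1 of 32 in each direction is near the background. The median difference was -0.13 over the 17 immediate early genes and -0.04 over the 15 NF-kB genes, against 0.01 over all genes and 0.05 over the 11285 genes brighter than the median of all values, as 31 of the 32 were. The immediate early median was -0.054 when knockout replicate 1 was left out and -0.0406 when wild-type replicate 2 was. The NF-kB median was -0.0137 when knockout replicate 2 was left out. For 28 of the 32, the 95% interval of the difference lay within 0.5 of zero on the log2 scale, and for all 32 within 1; over all 18193 genes, 16289 lay within 0.5 and 17941 within 1. The values that separated the genotypes lay mostly on 1 side. In 10 of the 32 genes all knockout arrays lay below all wild-type arrays, against 11.2% of all genes, and in 2 all lay above, against 20.7% of all genes. The genes were chosen with earlier results of these arrays known, so these counts are descriptions.

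**Figure D1:**
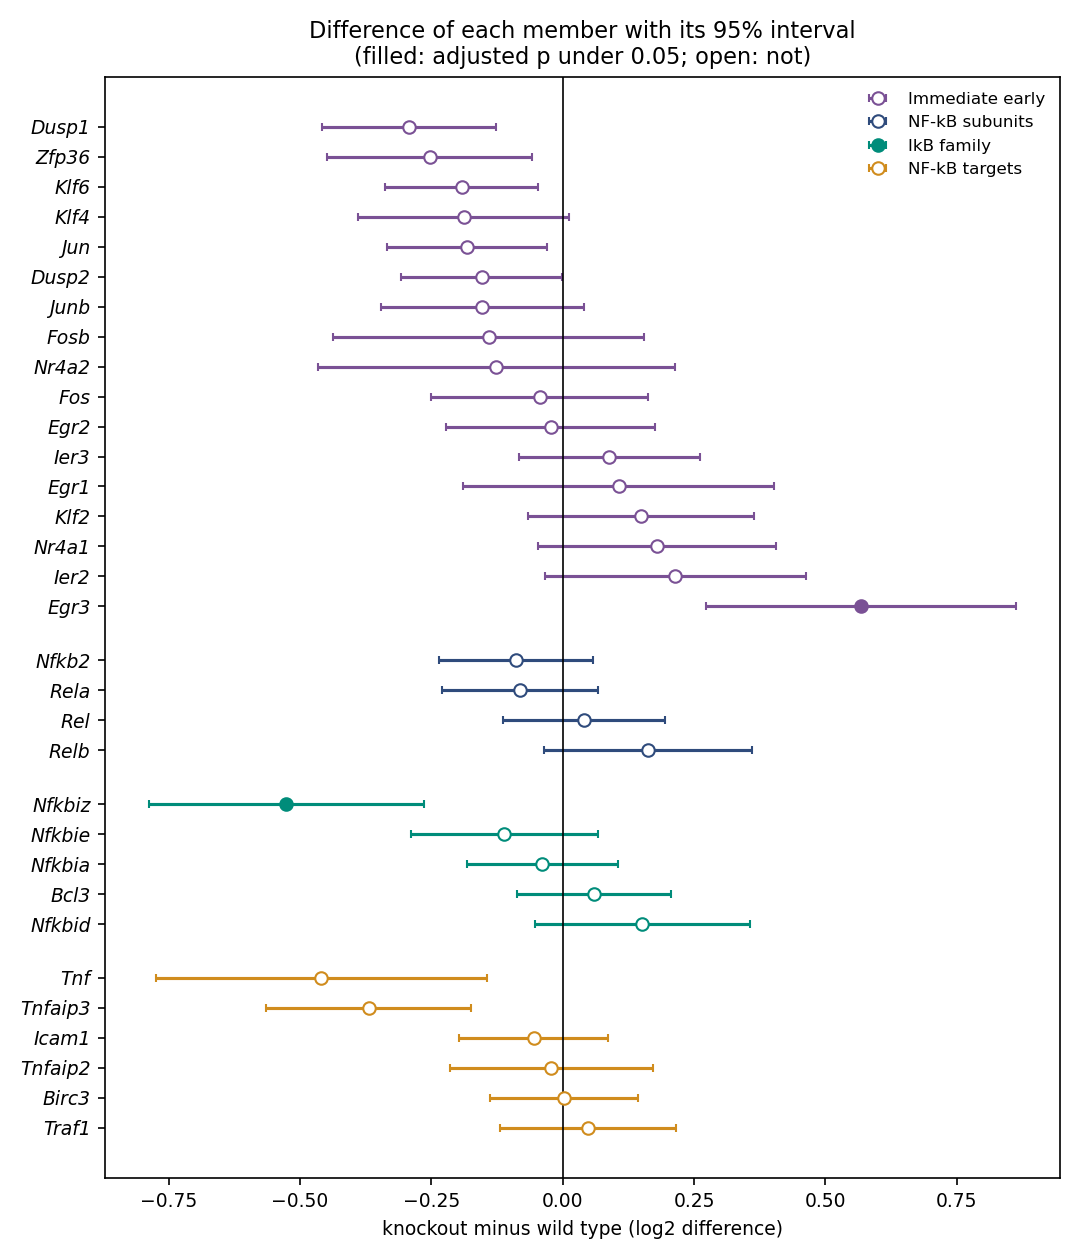
Log2 difference (knockout minus wild type) of each of the 32 genes on the horizontal axis, with its 95% interval from limma, grouped as immediate early genes, NF-kB subunits, the IkB family and NF-kB targets. Filled points passed an adjusted p of 0.05. Egr3 lies at 0.57 and Nfkbiz at -0.53, and most other intervals cross or come close to zero.

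Promoter stretches are shown for 6 of the genes to place the values beside the sequences that SRF, CREB and NF-kB are known to bind. They were chosen after the values were seen, and each holds a motif match. The sequences are RefSeq's on GRCm38.p6, where 27 of the 32 genes measured had a promoter entry, and the search covered the 250 bases before the start on both strands. Capitals mark only the match of the motif named for each stretch. The Tnfaip3 stretch also holds a match to the AP-1 site TGANTCA, counted below and left in lower case. The first 3 hold the NF-kB consensus. In Rel 2 matches overlap. Tnfaip3 has 2 separate matches at the start shown and 0 at another of its starts.
Tnfaip3, chr10:19015411-19015555, minus strand: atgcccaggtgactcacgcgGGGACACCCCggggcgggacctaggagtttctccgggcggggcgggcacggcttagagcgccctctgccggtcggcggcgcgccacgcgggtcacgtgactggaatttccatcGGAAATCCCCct
Nfkbia, chr12:55492648-55492696, minus strand: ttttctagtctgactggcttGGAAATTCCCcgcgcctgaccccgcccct
Rel, chr11:23771031-23771081, minus strand: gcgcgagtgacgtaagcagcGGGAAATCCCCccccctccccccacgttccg
The next 2 hold the CArG box of SRF, and the last holds the cyclic AMP response element, TGACGTCA, of CREB.
Zfp36, chr7:28379257-28379306, minus strand: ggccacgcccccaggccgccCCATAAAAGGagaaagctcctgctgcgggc
Egr2 (1 of its starts), chr10:67537474-67537523, plus strand: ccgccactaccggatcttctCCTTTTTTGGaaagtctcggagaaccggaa
Dusp1, chr17:26508588-26508635, minus strand: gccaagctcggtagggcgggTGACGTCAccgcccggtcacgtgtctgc
The NF-kB consensus was found in 7 of 13 NF-kB genes and 4 of 14 immediate early genes with an entry, against 8.23% of 27025 genes. The CArG box was found in 2 of 14 immediate early genes and 0 of 13 NF-kB genes, against 1.62% of all genes. The cyclic AMP response element was found in 1 of 14 and 1 of 13, against 1.77%. The AP-1 site TGANTCA was found in 0 of 14 immediate early and 3 of 13 NF-kB genes, against 7.82%. A match is a description of letters and not a site shown to be bound here.

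Among the Fos and Jun genes, whose products pair to form the AP-1 factor, none passed the threshold. Fos read 11.79, 11.68 and 11.96 in knockout and 11.74, 11.87 and 11.95 in wild type. The groups overlapped, and the difference of -0.04 had a 95% interval of -0.25 to 0.16. Jun read 10.20, 10.31 and 10.32 in knockout and 10.45, 10.51 and 10.42 in wild type. All knockout arrays were lower, yet the difference of -0.18 (SE 0.07) had a limma adjusted p of 0.17. Junb differed by -0.15 (SE 0.09, limma adjusted p = 0.362) with overlapping groups. Fosb was dim, below the median of all values on all 6 arrays, and differed by -0.14 (SE 0.13).

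The Egr zinc-finger factors did not move together. Egr3, known for restraining T cell activation alongside Egr2, read 7.47, 7.34 and 7.90 in knockout and 6.96, 6.95 and 7.10 in wild type. All knockout arrays lay above all wild-type arrays, with knockout replicate 3 the highest, and the rise of 0.57 (SE 0.13) was 1.48-fold (limma adjusted p = 0.0493). Its dimmer second probe set gave 0.08 (SE 0.07, limma adjusted p = 0.566), so the 2 probe sets disagree in size. The call held without knockout replicate 3 (limma adjusted p = 0.0487) and was lost without any of the other 5 arrays, with limma adjusted p of 0.0573 to 0.152. Egr1 differed by 0.11 (95% interval -0.19 to 0.40) and Egr2 by -0.02 (95% interval -0.22 to 0.18). In both, the groups overlapped.

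Of the genes that dampen such responses, Dusp1, Zfp36 and Dusp2 were lower on all knockout arrays, although none of them passed. Dusp1, a phosphatase that inactivates MAP kinases, read 11.53, 11.50 and 11.70 in knockout and 11.89, 11.87 and 11.85 in wild type. The wild-type arrays were tight (SD 0.02) and lay above every knockout array, with a difference of -0.29 (SE 0.07, limma adjusted p = 0.062). Zfp36, or tristetraprolin, which binds AU-rich elements and speeds the decay of mRNAs such as that of Tnf, read 10.48, 10.38 and 10.65 in knockout and 10.67, 10.85 and 10.75 in wild type. The gap between the groups was narrow, and the difference of -0.25 (SE 0.09) had a limma adjusted p of 0.139. Dusp2, another MAP kinase phosphatase, was lower on all knockout arrays by -0.15 (SE 0.07, limma adjusted p = 0.246). Ier3, a stress-induced survival gene, differed by 0.09 and Ier2, a nuclear protein of the early response, by 0.21, both with overlapping groups.

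Among the remaining immediate early genes, Klf6 had the smallest p. This gene, a zinc-finger factor linked to inflammatory activation of macrophages, read 11.91, 11.95 and 12.01 in knockout and 12.15, 12.18 and 12.13 in wild type. All 5 of its probe sets were lower in knockout, by -0.12 to -0.50, and 0 of the 5 passed (limma adjusted p of the brightest 0.134). Klf4, which favours alternative activation, differed by -0.19 (SE 0.09) and Klf2, which restrains inflammatory activation of monocytes, by 0.15 (SE 0.10), with overlapping groups. The orphan nuclear receptors Nr4a1 (0.18, SE 0.10) and Nr4a2 (-0.13, SE 0.15) did not pass either. In all, 0 immediate early genes fell by limma, with 5 lower at an unadjusted p under 0.05 (Dusp1, Klf6, Zfp36, Jun and Dusp2), against 8.15% of all genes, and 1 higher, against 15.2%.

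**Figure D2:**
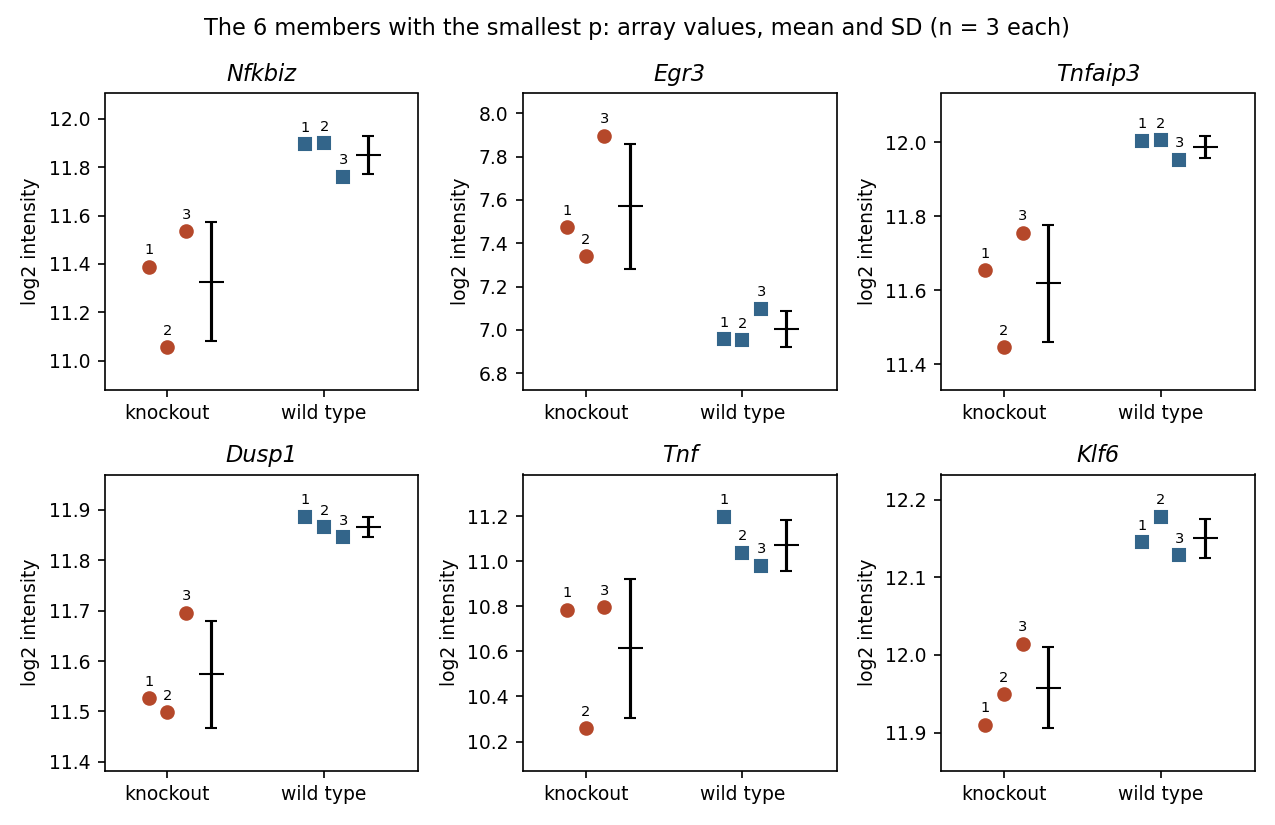
Log2 intensity (vertical axis, scaled for each gene) on the 3 knockout arrays (circles) and the 3 wild-type arrays (squares) for the 6 genes with the smallest p, with replicate numbers; bars give the mean and SD, n = 3 each. The choice by p favours genes whose genotypes do not overlap, so nothing is read from the lack of overlap in these 6. Knockout replicate 2 is the lowest array for Nfkbiz, Tnfaip3, Dusp1 and Tnf.

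None of the 4 NF-kB subunits passed by limma, 0 had an unadjusted p under 0.05, and all 4 intervals lay within 0.5 of zero. Rela, the main activating subunit, read 9.95, 9.89 and 9.98 in knockout and 9.997, 10.08 and 9.99 in wild type. The knockout arrays lay just below, by -0.08 (95% interval -0.23 to 0.07). Rel, the subunit c-Rel, differed by 0.04 (95% interval -0.11 to 0.19). Nfkb2, the precursor of the p52 subunit, differed by -0.09 (95% interval -0.24 to 0.06). Relb, the partner of p52 in the non-canonical pathway and a factor of dendritic cells, read 9.20, 9.47 and 9.22 in knockout and 9.05, 9.16 and 9.18 in wild type. It was the 1 subunit with all knockout arrays above, by 0.16 (SE 0.09, limma adjusted p = 0.344).

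Of the 5 IkB family genes in the set, 1 was called lower and 0 higher, against 2.05% and 2.85% of all genes. With a group this small, no rate is read from the call. Nfkbiz encodes IkB-zeta, a nuclear IkB protein that is itself induced by NF-kB and is needed for the secondary induction of genes such as Il6. It read 11.39, 11.05 and 11.54 in knockout and 11.90, 11.90 and 11.76 in wild type. No knockout array reached the lowest wild-type array, and the level fell by 0.53 (SE 0.12), or 1.44-fold (limma adjusted p = 0.0439). Its second probe set fell by 0.68 (SE 0.11, limma adjusted p = 0.0221), and the third had a difference of -0.29 (SE 0.11, limma adjusted p = 0.196). The call of the brightest held without knockout replicate 3 (limma adjusted p = 0.0268) and was lost without any of the other 5 arrays, with limma adjusted p of 0.0697 to 0.141; the difference was -0.39 without knockout replicate 2.

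The other 4 IkB genes did not pass. Nfkbia, which encodes the classical inhibitor IkB-alpha and is a rapid NF-kB target, read 13.87, 13.77 and 13.82 in knockout and 13.86, 13.84 and 13.88 in wild type. On this brightest probe set the groups overlapped, and the difference of -0.04 had a 95% interval of -0.18 to 0.10. Its 5 probe sets differed by -0.16 to 0.13, with 4 lower and 1 higher. Those at -0.05, -0.09 and -0.16 had all knockout arrays below all wild-type arrays, with limma adjusted p of 0.728, 0.48 and 0.198. The groups overlapped on the probe set at 0.13. Nfkbie, another cytoplasmic inhibitor, differed by -0.11 (95% interval -0.29 to 0.07). The nuclear IkB proteins Bcl3 (0.06) and Nfkbid (0.15) had slightly higher means in knockout and overlapping groups.

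Of the 6 NF-kB targets, Tnfaip3 and Tnf stood apart in size and neither passed. Tnfaip3 encodes A20, a ubiquitin-editing enzyme that switches NF-kB signalling off. It read 11.65, 11.45 and 11.76 in knockout and 12.00, 12.01 and 11.95 in wild type. All knockout arrays were lower, by -0.37 (SE 0.09, limma adjusted p = 0.0513), and the second probe set gave -0.30 (limma adjusted p = 0.0957). Without knockout replicate 3 the limma adjusted p was 0.0399, and without the other arrays 0.0956 to 0.145. Tnf, the cytokine tumour necrosis factor, read 10.79, 10.26 and 10.80 in knockout and 11.20, 11.04 and 10.98 in wild type. Knockout replicate 2 was the lowest array, and the difference of -0.46 (SE 0.14, limma adjusted p = 0.105) was -0.28 without that array.

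The other 4 targets did not pass, and their groups overlapped. The adhesion molecule Icam1 read 10.64, 10.66 and 10.69 in knockout and 10.73, 10.75 and 10.68 in wild type, a difference of -0.05 (95% interval -0.20 to 0.09). Birc3, an apoptosis inhibitor that acts in TNF receptor signalling, differed by 0.00 (95% interval -0.14 to 0.14). Traf1, an adaptor of TNF receptors, differed by 0.05 (95% interval -0.12 to 0.22) and Tnfaip2 by -0.02 (95% interval -0.21 to 0.17). Among the 15 NF-kB genes, 0 rose by limma, with 0 higher and 3 lower at an unadjusted p under 0.05 (Nfkbiz, Tnfaip3 and Tnf), against 15.2% higher and 8.15% lower over all genes.

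Of the genes whose promoters are shown above, Tnfaip3, Nfkbia and Rel, with NF-kB matches, had differences of -0.37, -0.04 and 0.04. Zfp36 and Egr2, with a CArG box, had differences of -0.25 and -0.02, and Dusp1, with the cyclic AMP response element, one of -0.29. Another start of Egr2, not shown, held 2 NF-kB matches and 0 CArG boxes. None of these genes passed, and since they were chosen with their values known, nothing is read from them. Egr3 and Nfkbiz, the genes that were called, had no promoter entry, so the motif counts above do not cover them.

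Immediate early genes and NF-kB genes both had medians slightly under zero, with 1 call each. The median absolute difference was 0.15 for immediate early genes and 0.08 for NF-kB genes, against 0.10 over all genes. Among immediate early genes 11 of 17 means were lower in knockout, and among NF-kB genes 9 of 15, against 46.9% of all genes. Non-overlapping lower values were seen in 5 of 17 and 5 of 15, against 11.2% of all genes, and non-overlapping higher values in Egr3 and Relb, 1 in each group, against 20.7% of all genes. The median SD between arrays was 0.13 in knockout and 0.09 in wild type for immediate early genes, and 0.06 in knockout and 0.05 in wild type for NF-kB genes. No test of the difference between the 2 groups of genes was made.

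The knockout arrays differed among themselves. The SD was larger among knockout than among wild-type arrays in 24 of the 32 genes. Among the knockout arrays, replicate 3 was the highest in 23 of the 32 and replicate 2 the lowest in 17. The same counts over all genes were not made, so this pattern cannot be called particular to the 32 genes. The mean deviation from the gene means was -0.05, -0.09 and 0.06 on knockout replicates 1, 2 and 3, and 0.02, 0.04 and 0.03 on wild-type replicates 1, 2 and 3. On the same arrays the neutrophil markers lay at -0.18, -0.59 and 0.07 in knockout and at 0.24, 0.10 and 0.35 in wild type. Dendritic cell markers lay at 0.11, 0.37 and 0.01 in knockout and at -0.22, -0.23 and -0.05 in wild type. Their part in the values of the immediate early and NF-kB genes was not tested.

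**Figure D3:**
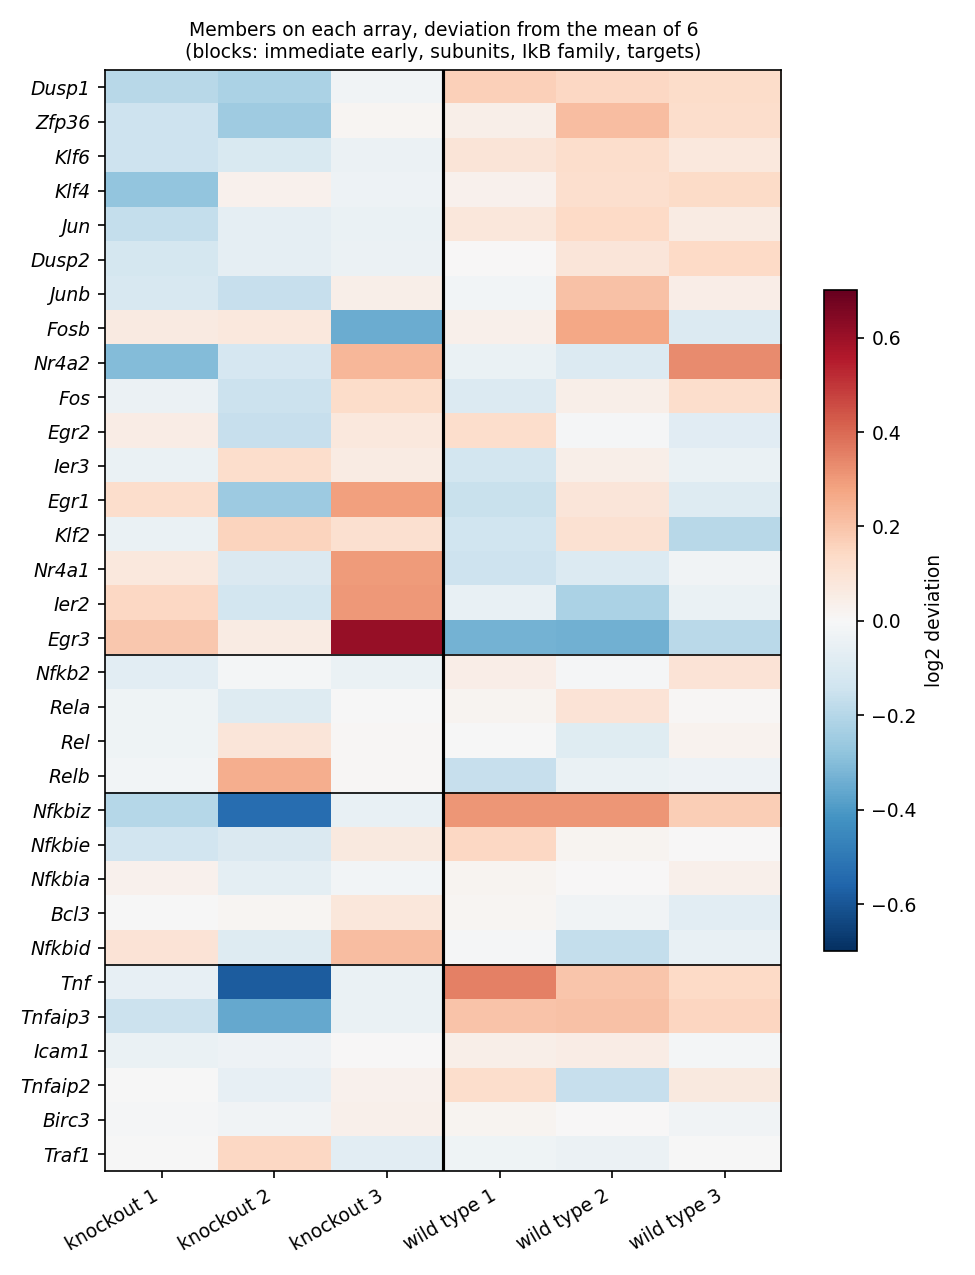
Deviation of each of the 32 genes (rows) from its mean over the 6 arrays, in log2 units, on the 3 knockout and 3 wild-type arrays (columns); lines separate immediate early genes, NF-kB subunits, the IkB family and NF-kB targets. Knockout replicate 2 is the lowest array for Nfkbiz, Tnfaip3 and Tnf, knockout replicate 3 is the highest for Egr3, and knockout replicate 2 is the highest for Relb.

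The wider early response was read from 20 other immediate early and AP-1 genes, of which 2 fell, 0 rose and 18 did not pass, against 2.05% lower and 2.85% higher over all genes. At an unadjusted p under 0.05, 4 were lower, against 8.15% of all genes, and 2 higher, against 15.2%. The median was -0.08. Ccn2, a matrix protein induced by TGF-beta and SRF cofactors, read 4.66, 4.32 and 4.83 in knockout and 6.40, 5.78 and 7.09 in wild type. Its knockout values lay under the median of all values, and it fell by 1.82 (SE 0.28, limma adjusted p = 0.0198). The call was lost when knockout replicate 1, knockout replicate 2 or wild-type replicate 1 was left out, with limma adjusted p of 0.0753, 0.0573 and 0.05. Of the fibroblast markers, 3 of 8 fell as well, and their part in the Ccn2 values was not tested. Mafk, a small Maf partner of stress factors, fell by 0.47 (SE 0.09, limma adjusted p = 0.0257; 0.0517 to 0.0975 without any array but knockout replicate 3). Atf3, a stress-induced repressor, had a difference of -0.29 (limma adjusted p = 0.0612) and Nr4a3, the relative of Nr4a1 and Nr4a2, one of 0.89 (limma adjusted p = 0.0666).

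Of 19 MAP kinase phosphatases and other feedback genes, Dusp10 fell, Zfp36l1 rose and 17 did not pass. These calls are near the 2.05% lower and 2.85% higher over all genes. Before adjustment, 5 of the 19 were lower (limma p under 0.05), against 8.15% of all genes, and 4 higher, against 15.2%. All knockout arrays lay below all wild-type arrays in 6, against 11.2% of all genes, and above in 4, against 20.7%. The median was -0.04. Dusp10, a phosphatase of the p38 and JNK kinases, read 7.10, 7.10 and 7.46 in knockout and 7.96, 7.73 and 7.98 in wild type, and it fell by 0.67 (SE 0.11, limma adjusted p = 0.0226). Zfp36l1, a relative of Zfp36 that also promotes mRNA decay, read 11.62, 11.93 and 11.51 in knockout and 11.07, 11.15 and 11.24 in wild type, a rise of 0.53 (SE 0.11, limma adjusted p = 0.0343). For both genes the knockout and wild-type arrays did not overlap, and both calls were lost without any array but knockout replicate 3 (limma adjusted p of 0.0541 to 0.113). Spred1, an inhibitor of the Ras pathway, had a difference of -0.42 (limma adjusted p = 0.0551) and Dusp14 one of -0.47 (limma adjusted p = 0.0698).

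Upstream, 3 of 18 measured MAP kinase, SRF and CREB signalling genes changed, and 15 did not pass (median 0.00), against 4.9% of all genes called. The count dropped to 0 when knockout replicate 1 or wild-type replicate 2 was left out, and to 1 when knockout replicate 2 or wild-type replicate 1 was. It was also 0 with a replicate block or a floor on dim values. Before adjustment, 2 of the 18 were lower (limma p under 0.05), against 8.15% of all genes, and 5 higher, against 15.2%. All knockout arrays lay below all wild-type arrays in 1, against 11.2% of all genes, and above in 8, against 20.7%. Map3k8, the kinase Tpl2 that links NF-kB1 to the ERK pathway, read 9.06, 9.09 and 9.21 in knockout and 9.60, 9.71 and 9.60 in wild type, and it fell by 0.52 (SE 0.07, limma adjusted p = 0.0169). Leaving out knockout replicate 1 gave a limma adjusted p of 0.0727, and leaving out wild-type replicate 2 gave 0.06. Mrtfa, a cofactor of SRF, read 8.06, 8.19 and 8.15 in knockout and 7.72, 7.79 and 7.68 in wild type, a rise of 0.40 (SE 0.07, limma adjusted p = 0.0223). Rps6ka5, the kinase MSK1 that phosphorylates CREB and histone H3, rose by 0.60 (SE 0.10, limma adjusted p = 0.0238). Mrtfa kept its call only without knockout replicate 3, with limma adjusted p of 0.056 to 0.0745 otherwise. Rps6ka5 kept it when replicate 3 of either genotype was left out, with limma adjusted p of 0.0592 to 0.0937 otherwise. Mapk14, the kinase p38 alpha, had a difference of 0.21 (limma adjusted p = 0.106).

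NF-kB signalling genes and the other NF-kB inhibitors, with Nfkbib of the IkB family among them, gave no call. Of 20 signalling genes 0 passed by limma, and the median was -0.08. At an unadjusted p under 0.05, 5 were lower, against 8.15% of all genes, and 2 higher, against 15.2%. Map3k14, the kinase NIK of the non-canonical pathway, read 7.69, 7.98 and 7.70 in knockout and 7.25, 6.97 and 7.51 in wild type. All knockout arrays were higher, by 0.55 (SE 0.135, limma adjusted p = 0.0594). The kinases Ikbke (-0.34) and Tbk1 (-0.26) and the TNF receptor Tnfrsf1a (-0.21) were lower on all knockout arrays, with limma adjusted p of 0.104, 0.13 and 0.129. Of 13 inhibitors 0 passed by limma, and the median was -0.06. An unadjusted p under 0.05 was reached by 2 lower genes and 1 higher, against the same shares of all genes. The 4 with the smallest p were N4bp1 (-0.31), Otulin (0.17), Irak3 (-0.24) and Itch (0.14).

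Of 29 other NF-kB targets, Ccl4 and Cflar fell, 0 rose and 27 did not pass, against 2.05% lower and 2.85% higher over all genes. The mean was lower in knockout in 27 of the 29, against 46.9% of all genes, and the median difference was -0.26. At an unadjusted p under 0.05, 16 were lower, against 8.15% of all genes, and 1 was higher, against 15.2%. Ccl4, a chemokine for monocytes and T cells, read 11.67, 11.16 and 11.62 in knockout and 12.29, 12.33 and 12.05 in wild type, and it fell by 0.74 (SE 0.14, limma adjusted p = 0.0266). Cflar, the caspase-8 inhibitor c-FLIP, fell by 0.47 (SE 0.09, limma adjusted p = 0.028). Both calls held when replicate 3 of either genotype was left out and were lost without any of the other 4 arrays, with limma adjusted p of 0.0501 to 0.106. The kinase Pim1 had a difference of -0.27 (limma adjusted p = 0.0507) and the adhesion molecule Vcam1 one of -0.82 (limma adjusted p = 0.0542).

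The mean deviation of these 29 targets was -0.11, -0.29 and -0.03 on knockout replicates 1, 2 and 3 and 0.21, 0.10 and 0.11 on wild-type replicates 1, 2 and 3. Knockout replicate 2 was the lowest array for this list, for the neutrophil markers (-0.59) and for the macrophage markers, whose mean deviation was -0.05, -0.20 and 0.00 on knockout replicates 1, 2 and 3 and 0.08, 0.11 and 0.06 on wild-type replicates 1, 2 and 3. The part of other cells in this list was not tested.

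**Figure D4:**
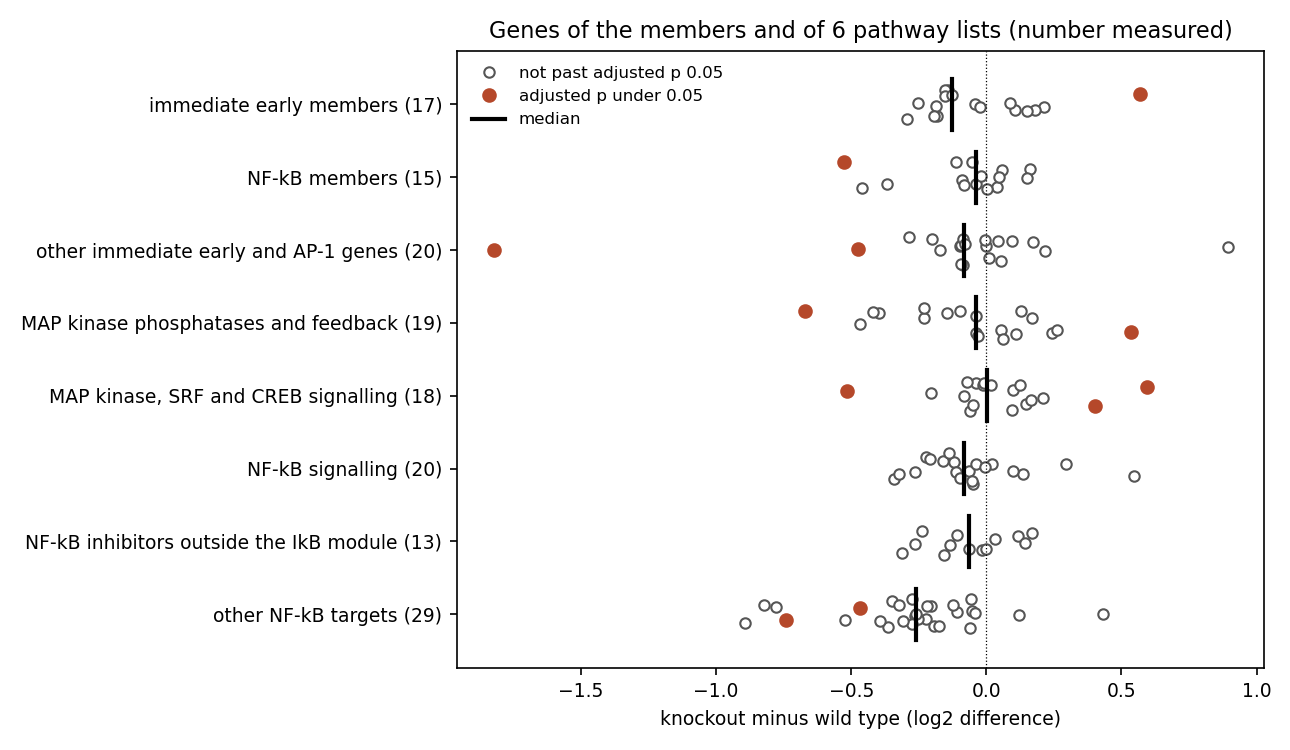
Log2 difference (knockout minus wild type, horizontal axis) of each gene in the immediate early and NF-kB groups and in 6 pathway lists, with the number measured in brackets; filled points passed an adjusted p of 0.05, and black bars are medians. The medians lie between -0.26 for the other NF-kB targets and 0.00 for MAP kinase, SRF and CREB signalling.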

How the data were processed

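The authors deposited log2 intensities, 1 value per probe set and array; the log2 scale was read from the values. RMA, GCRMA 2.30.0, limma 3.14.4 and affy 1.36.1 are listed without role or order per the submitters' processing notes, so which of them produced the values stays unknown. Such methods make arrays alike in distribution, which would hide a shift of most genes, and differ in how far dim values are pulled down.

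After 64 control probe sets were left out, 45037 were tested in R 4.3.3 by limma 3.58.1, with lmFit, eBayes and a genotype term. Gene names came from the platform annotation. Simulated arrays served to test this, with changes planted among 45037 probe sets and noise drawn separately for each probe set. Of the changes of size 0.5 (log2), 53.7% were recovered, with 94.0% at size 1, 100.0% at size 2 and 4 false calls. Shifts that many genes share on an array were not simulated, so recovery in these data may differ. The genes and lists were chosen with earlier results of these data known. The 32 genes measured are described; from each pathway list the 4 genes with the smallest p are named. A permutation of 6 arrays cannot give a two-sided p under 0.1. Same-numbered replicates did not deviate together (correlations of -0.06, -0.04 and -0.13), so the arrays were not treated as pairs. Alternatives were 2 normalizations, a filter and a floor on dim values, trend and robust eBayes, a replicate block, 2 other choices of probe sets and leaving out each array. No array repeated another's values. Figures were drawn with matplotlib 3.10.9.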

Additional observations from a re-analysis of the deposited data

How the results depend on the processing

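Of 447 values of single genes under 14 alternatives, 421 kept their side of the threshold, with the sign kept or changed within the spread. For 1 more value, uncalled, the sign changed by more than the spread. Calls were lost in 15 values and gained in 10. Where the sign was kept, the move was not compared with the spread. The losses were those of Egr3 and Nfkbiz, and the gains those of Dusp1, Klf6 and Tnfaip3. No called gene changed sign, while 7 uncalled ones did in 13 values. The number of called probe sets, 1691, was 2692 with above-median probe sets only, 71 with the floor, 3126 with trend and robust settings and 92 with the replicate block. The replicate block left 0 immediate early genes called higher (Egr3 limma adjusted p = 0.0584) and 0 NF-kB genes called lower (Nfkbiz limma adjusted p = 0.0841); it left 1 of the other immediate early genes, and 0 of the MAP kinase feedback, MAP kinase signalling and other NF-kB target lists. The floor left 0 in each of these 6 groups (limma adjusted p of 0.183 for Egr3 and 0.164 for Nfkbiz). Quantile normalization left 0 immediate early genes higher. Immediate early genes called lower numbered 1 with above-median probe sets, 2 with trend and robust settings and 2 with the mean of probe sets, and NF-kB genes called lower 2 in each of these settings. Above-median probe sets gave 4 feedback genes, 1 NF-kB signalling gene and 6 other NF-kB targets; trend and robust settings gave 8, 4 and 4, and 1 NF-kB inhibitor. The mean of probe sets gave 1 feedback gene, and median centring 1 NF-kB signalling gene. Without 1 array in turn, called probe sets numbered 40 to 1360, immediate early genes lower 0 to 1 and higher 0 to 1, NF-kB genes lower 0 to 2, other immediate early genes 0 to 3, feedback genes 0 to 3, MAP kinase signalling genes 0 to 3, NF-kB signalling genes 0 to 1 and other NF-kB targets 0 to 4. The median was -0.157 to -0.0406 for immediate early and -0.0474 to -0.0137 for NF-kB genes. The causes of these changes were not tested. With 3 arrays per genotype, a gene that did not pass may still differ within its interval.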

Other observations

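Probe sets of 1 gene did not always read alike. For Nr4a2, 5 of 6 probe sets were lower in knockout and 1 higher, by -0.24 to 0.01, and 0 of the 6 passed. For Klf6, the probe set with the largest difference (-0.50, SE 0.13) had a limma adjusted p of 0.0736. For Traf1 both probe sets were higher, by 0.05 and 0.18, and for Birc3 1 was lower (-0.17) and 1 level (0.00). For Nfkb2 the 2 probe sets lay on opposite sides of zero (-0.09 and 0.08). A gene's mean over its probe sets moved Klf6 past the threshold (-0.26, limma adjusted p = 0.0382) and Tnfaip3 as well (-0.33, limma adjusted p = 0.0427).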
